A study of Homo sapiens with 8 samples.

Results

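Antisense noncoding RNAs are named after the protein-coding gene that lies on the other strand, with the suffix AS and a number. Of 21077 rows of the deposited table, 561 carry a symbol of this form. Members were chosen by their measured level, as those with a mean of at least 1 CPM (normalized read counts scaled to library size) over all 8 libraries. EPB41L4A-AS1 was left out by name, and 177 antisense RNAs remained. The cells were Hs578T, an established breast cancer cell line without estrogen receptor. They were cultured in a T25 flask with glucose at 5 mM (low glucose, labelled Cont) or 25 mM (high glucose, labelled HG, a model of hyperglycemia) for 48 hours, with 4 libraries per group. The labels give no other agent or alteration of these cells, and the methods of the study describe medium without serum at both glucose levels. The question asked of these RNAs was which of them changed in high glucose, and whether the gene on the other strand changed with them.

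An antisense RNA is transcribed from the strand opposite to a gene. Some start close to the promoter of that gene and run away from it, while others run through its exons or introns. Such RNAs have been described as acting on the neighboring gene in either direction, by recruiting chromatin factors, by pairing with the mRNA or by transcription itself, and many have no known role. They are mostly low in level, and the nuclear exosome degrades a large part of them.

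The annotation of the members largely matched their label. In GENCODE, 176 of 177 were found by their identifier and 173 of these were long noncoding RNA genes. NCBP2-AS2 is annotated there as a protein-coding gene, SVIL-AS1 and ATE1-AS1 as transcribed pseudogenes, and DDIT4-AS1 was not found. A total of 11 members now carry a name for a divergent transcript, which starts next to a gene and runs the other way. Exon bases shared with a gene on the other strand were present in 153 members, with a median of 9% of exon bases over the 176 members. Whether strand was used in counting these libraries is not given in the sources used here, so reads of shared exon bases could come from either strand.

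The libraries were even in depth, estimated at 10244887 to 11956682 counts. On the deposited scale, 1 CPM is 8.48 to 9.23 counts in low-glucose libraries and 9.98 to 11.5 counts in high-glucose libraries. Members had a median of 2.83 CPM, or few counts, and 24 of 177 exceeded 10 CPM. Within groups, log2(CPM + 1) of the members correlated between libraries at r = 0.950 to 0.972 across genes, which are not independent replicates. Between groups it correlated at 0.752 to 0.796. Defining markers of mesenchymal breast cancer cells were high in all 8 libraries, with VIM at 3567 CPM or more. EPCAM was at 0 and CDH1 and ESR1 were under 1 CPM in all libraries, and the endothelial marker CDH5 was at 0. Other luminal or epithelial markers were present: KRT18 was at 94.4 to 242 CPM, and GATA3 was at 18.9 to 24.2 CPM and not called. Of the 18 markers checked, 5 of 6 mesenchymal ones differed between groups: VIM (log2 fold change -1.17), FN1 (-0.78), ZEB1 (-0.71) and SPARC (-0.15) were called lower in high glucose and COL1A2 (0.70) higher. Of the markers of other cell types, PECAM1 (means of 2.05 and 5.80 CPM in low and high glucose), VWF (0.221 and 1.52 CPM) and PTPRC (0.0835 and 0.714 CPM) were called higher, and KRT8 (49.5 and 17.3 CPM), KRT18 and CD68 (184 and 94.1 CPM) lower. Their part in the results was not tested.

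More antisense RNAs rose than fell in high glucose. A total of 85 of 177 (48.0%) were higher and 35 (19.8%) were lower at a false discovery rate (FDR) under 0.05 in limma, and 57 were not called. The same test called 35.7% of all 15570 genes tested higher and 37.2% lower. The median log2 fold change was 0.32 over the members and -0.0003 over all genes. Changes are differences of mean log2(CPM + 1) between high and low glucose, positive where high glucose is higher, given as log2 change ± SE, and for genes of low level the added 1 CPM shrinks them. Adjusted p values are from limma with Benjamini-Hochberg adjustment over all genes tested. All members passed the filter on low values. Of members with a mean of 1 to 10 CPM, 45.8% were higher and 18.3% lower, against 39.2% and 26.0% of all genes tested in that range of levels. Of the 24 members above 10 CPM, 15 (62.5%) were higher and 7 (29.2%) lower. This set is small, and the share of all genes at that level was not counted.

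Changes of at least 2-fold on this scale were called in 25 members upward and 7 downward. These are 14.1% and 3.95% of members, against 8.57% and 8.48% of all genes. Of the 25, 8 were under 1 CPM in low glucose and were members only through high glucose, and 1 of the 7 was under 1 CPM in high glucose. Of the 149 members at 1 CPM or more in each group, 17 (11.4%) had such a rise and 6 (4.03%) such a fall, against 8.64% and 9.81% of all genes at that level. The groups did not overlap in 101 of 177 members (57.1%), against 66.7% of all genes tested. Together the members summed to 1191 ± 20.5 CPM in low glucose and 1342 ± 24.3 CPM in high glucose (SD, n = 4), or 0.0980% ± 0.00168 and 0.131% ± 0.00321 of the signal of a library. The excess of rises depended in size on scaling: 70.8% of member calls were higher in the deposited scale and 81.6% (102 higher, 23 lower) after all libraries were set to the same total, which moved the median of all genes by 0.20 on the log2 scale. Relative to that shift, the member median was 0.30. The split was 61.7% higher with quantile normalization.

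**Figure D1:**
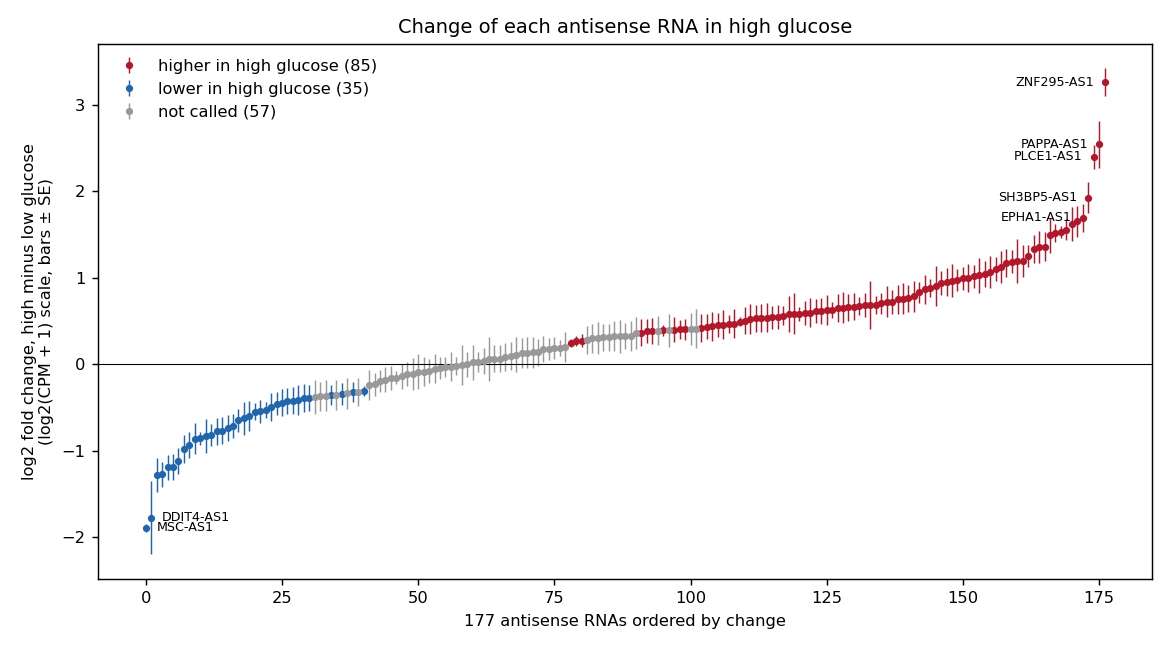
Log2 fold change (y axis, high minus low glucose, bars ± SE) of each of 177 antisense RNAs in order of change (x axis). Red marks 85 members called higher, blue 35 called lower and gray 57 not called, and ZNF295-AS1 stands at the top with 3.26 and MSC-AS1 at the bottom with -1.89.

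ZNF295-AS1 had the largest rise. It lies on chr21:42009194-42024920 (GRCh38), opposite ZBTB21, a BTB zinc finger factor formerly named ZNF295. It measured 1.22, 2.92, 2.28 and 2.005 CPM in low glucose and 33.5, 30.3, 26.1 and 23.6 CPM in high glucose (log2 change of 3.26 ± 0.16, adjusted p = 5.78e-11). The lowest high-glucose library was far above the highest low-glucose library. ZBTB21 itself measured 66.2, 63.8, 69.1 and 63.2 CPM in low glucose and 70.6, 65.2, 75.7 and 73.1 CPM in high glucose (log2 change of 0.12 ± 0.05, adjusted p = 0.066), and its groups overlapped.

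Several of the next largest rises started from levels near 0. PLCE1-AS1, PLS3-AS1 and EPHA1-AS1 were members only through high glucose, so the choice of members favored a rise in them. PLCE1-AS1 (chr10:94279290-94287070) measured 0, 0, 0.108 and 0.236 CPM in low glucose and 5.11, 4.71, 4.20 and 4.77 CPM in high glucose (log2 change of 2.39 ± 0.14, adjusted p = 4.39e-10). PLCE1, a phospholipase C that acts with Ras, measured 13.2, 9.78, 9.43 and 10.4 CPM in low glucose and 18.9, 15.3, 15.9 and 17.2 CPM in high glucose (log2 change of 0.62 ± 0.11, adjusted p = 0.000121). Both rose, without overlap between groups. PLS3-AS1 measured 0, 0.337, 0 and 0 CPM in low glucose and 2.08, 2.10, 3.72 and 1.89 CPM in high glucose (log2 change of 1.65 ± 0.18, adjusted p = 6.67e-07), so that 3 of 4 low-glucose libraries were at 0. Its partner PLS3, an actin-bundling plastin, stood at 323 ± 16.1 to 339 ± 3.87 CPM and was not called (adjusted p = 0.106). EPHA1-AS1, opposite a gene for an ephrin receptor, measured 0.332, 0.787, 0.542 and 1.06 CPM in low glucose and 3.81, 4.01, 4.39 and 5.31 CPM in high glucose (log2 change of 1.69 ± 0.16, adjusted p = 1.54e-07). EPHA1 was at most 1.10 CPM in each library and its log2 fold change was 0.38 (adjusted p = 0.0377), a call that was lost in 9 of 18 alternative fits.

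PAPPA-AS1 rose while PAPPA fell. PAPPA-AS1 was a member only through high glucose, so the choice of members favored its rise. PAPPA is a secreted protease that cleaves insulin-like growth factor binding proteins. PAPPA-AS1 (chr9:116398157-116400606) measured 0, 0, 1.78 and 0.386 CPM in low glucose and 5.16, 9.27, 6.86 and 7.86 CPM in high glucose (log2 change of 2.54 ± 0.27, adjusted p = 5.32e-07), and PAPPA measured 141, 137, 144 and 135 CPM in low glucose and 85.2, 79.3, 86.3 and 86.2 CPM in high glucose (log2 change of -0.72 ± 0.04, adjusted p = 4.75e-10). All exon bases of PAPPA-AS1 are shared with the other strand, and the opposite directions were measured in these bases and in PAPPA as a whole. SH3BP5-AS1 behaved likewise, at 4.33, 1.67, 1.99 and 2.68 CPM in low glucose and 12.2, 12.1, 11.9995 and 13.4 CPM in high glucose (log2 change of 1.92 ± 0.18, adjusted p = 8.89e-08). SH3BP5, which binds the kinase JNK, fell from 55.3 ± 1.05 to 36.2 ± 1.57 CPM (log2 change of -0.60 ± 0.05, adjusted p = 5.08e-08), and neither gene overlapped between groups.

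The other large rises included antisense RNAs of the ubiquitin and proteasome system. Of these, PSMD6-AS2 was a member only through high glucose, so the choice of members favored its rise. OTUD6B-AS1, opposite a deubiquitinase gene, measured 19.6, 20.8, 22.8 and 21.1 CPM in low glucose and 59.98, 55.7, 66.0 and 69.0 CPM in high glucose (log2 change of 1.53 ± 0.07, adjusted p = 3.94e-11). OTUD6B rose with it from 16.1 ± 1.94 to 36.4 ± 2.77 CPM (log2 change of 1.14 ± 0.09, adjusted p = 1.27e-08). PSMD6-AS2, opposite a gene for a subunit of the proteasome lid, measured 0.244, 0.234, 0.449 and 1.09 CPM in low glucose and 2.56, 3.57, 3.60 and 4.55 CPM in high glucose (log2 change of 1.62 ± 0.19, adjusted p = 1.57e-06), whereas PSMD6 stood at 106 ± 3.96 to 111 ± 4.15 CPM and was not called (adjusted p = 0.144). WAC-AS1 measured 4.93, 4.79, 3.61 and 5.61 CPM in low glucose and 15.1, 15.7, 15.6 and 16.4 CPM in high glucose (log2 change of 1.55 ± 0.12, adjusted p = 9.69e-09). WAC, an adaptor for ubiquitination of histone H2B, rose less, from 185 ± 3.48 to 207 ± 12.3 CPM (log2 change of 0.16 ± 0.04, adjusted p = 0.003). ZNF433-AS1 measured 5.81, 4.93, 4.73 and 5.89 CPM in low glucose and 16.3, 18.1, 16.9 and 16.8 CPM in high glucose (log2 change of 1.51 ± 0.10, adjusted p = 2.51e-09), and ZNF433, a zinc finger gene, fell from 12.2 ± 0.559 to 3.77 ± 0.535 CPM (log2 change of -1.48 ± 0.12, adjusted p = 1.44e-08).

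**Figure D2:**
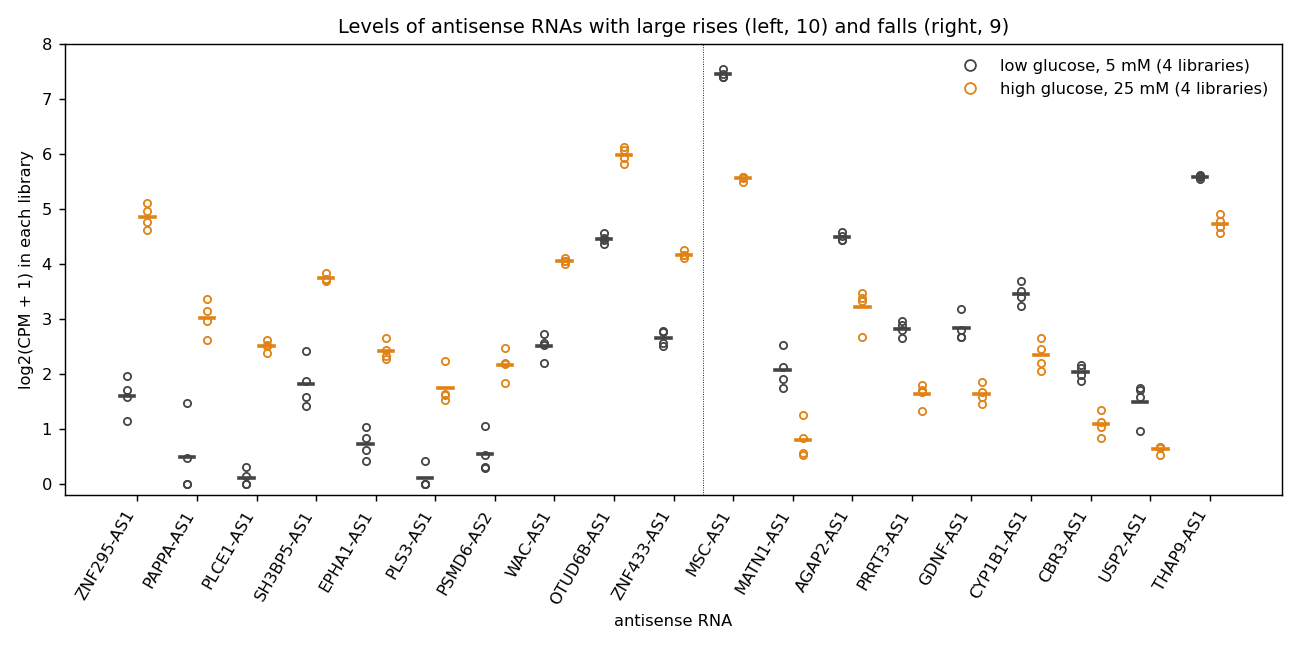
Level of the 10 antisense RNAs with the largest rises and 9 of the 10 with the largest falls among those without overlap between groups (x axis) in each library, as log2(CPM + 1) (y axis). Circles are libraries (gray, low glucose; orange, high glucose; 4 each) and short bars are group means, and the groups are apart in each of the 19.

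MSC-AS1 had the largest fall and was the most abundant member in low glucose. It runs opposite MSC, which encodes musculin, a bHLH repressor known from muscle development. MSC-AS1 measured 175, 169, 167 and 185 CPM in low glucose and 46.9, 44.3, 46.9 and 46.6 CPM in high glucose (log2 change of -1.89 ± 0.05, adjusted p = 2.48e-14). MSC fell further, from 591, 670.2, 600.0 and 599 CPM in low glucose to 33.1, 34.2, 24.7 and 22.9 CPM in high glucose (log2 change of -4.39 ± 0.10, adjusted p = 1.38e-14). DDIT4-AS1 measured 15.2, 9.94, 3.44 and 8.63 CPM in low glucose and 1.98, 0, 2.73 and 3.93 CPM in high glucose (log2 change of -1.78 ± 0.42, adjusted p = 0.00145), with overlap of the groups and a library at 0. DDIT4, an inhibitor of mTORC1 that responds to stress, fell from 139.5 ± 8.74 to 73.9 ± 7.83 CPM (log2 change of -0.91 ± 0.07, adjusted p = 5.79e-09) without overlap.

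Falls without a matching fall of the partner were also found. AGAP2-AS1 (chr12:57726240-57728356) measured 20.6, 22.9, 21.9 and 20.7 CPM in low glucose and 9.09, 10.1, 9.44 and 5.40 CPM in high glucose (log2 change of -1.28 ± 0.14, adjusted p = 8.82e-07). AGAP2, a GTPase-activating protein, was at 0.904 CPM or less in low glucose and not called (log2 change of 0.23 ± 0.18, adjusted p = 0.252). Of the 1500 exon bases of AGAP2-AS1, 1378 are shared with gene models on the same strand and 866 with the other strand. Which of these models its reads cover was not tested. CYP1B1-AS1 measured 8.41, 11.97, 10.4 and 9.61 CPM in low glucose and 3.14, 4.49, 5.32 and 3.61 CPM in high glucose (log2 change of -1.12 ± 0.15, adjusted p = 5.69e-06), whereas CYP1B1, a monooxygenase of estradiol and xenobiotics, rose from 12.1 ± 0.778 to 16.3 ± 0.928 CPM (log2 change of 0.40 ± 0.09, adjusted p = 0.000665). MATN1-AS1 measured 2.76, 2.36, 4.76 and 3.40 CPM in low glucose and 0.780, 1.40, 0.477 and 0.450 CPM in high glucose (log2 change of -1.28 ± 0.20, adjusted p = 2.97e-05), and MATN1, a cartilage matrix protein, was too low to be tested. MATN1-AS1 was a member only through low glucose, so the choice of members favored its fall. PRRT3-AS1 fell from 6.12 ± 0.657 to 2.13 ± 0.422 CPM (log2 change of -1.19 ± 0.14, adjusted p = 1.67e-06) and PRRT3 was not called (adjusted p = 0.128).

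Pairs in which both RNAs fell included 4 more. GDNF-AS1 (chr5:37839884-37875799) measured 5.42, 5.41, 8.04 and 5.98 CPM in low glucose and 1.73, 2.01, 2.21 and 2.64 CPM in high glucose (log2 change of -1.19 ± 0.15, adjusted p = 3.18e-06), and GDNF, a neurotrophic factor, fell from 110.1 ± 4.30 to 38.3 ± 2.42 CPM (log2 change of -1.50 ± 0.05, adjusted p = 1.54e-12). USP2-AS1 fell from 1.89 ± 0.652 to 0.558 ± 0.0732 CPM (log2 change of -0.86 ± 0.18, adjusted p = 0.000442), and the deubiquitinase USP2 from 2.52 ± 0.435 to 0.855 ± 0.409 CPM (log2 change of -0.94 ± 0.18, adjusted p = 0.00018). USP2-AS1 was a member only through low glucose, so the choice of members favored its fall. THAP9-AS1 is among the most abundant members and measured 45.8, 46.6, 47.3 and 48.3 CPM in low glucose and 22.5, 26.4, 29.0 and 24.5 CPM in high glucose (log2 change of -0.86 ± 0.07, adjusted p = 3.06e-08). THAP9, a gene derived from a transposase, fell from 4.51 ± 1.06 to 2.25 ± 0.435 CPM (log2 change of -0.75 ± 0.16, adjusted p = 0.000608). CBR3-AS1 fell from 3.11 ± 0.372 to 1.15 ± 0.310 CPM (log2 change of -0.94 ± 0.15, adjusted p = 3.88e-05), and the carbonyl reductase CBR3 had a log2 fold change of -0.28 (adjusted p = 0.022) with overlapping groups and a call lost in 6 of 18 alternative fits.

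Of the 8 most abundant members, 5 were higher and 3 lower, beside 48.0% higher and 19.8% lower over all members. MSC-AS1, OTUD6B-AS1 and THAP9-AS1 are described above, and the other 5 changed less. FGD5-AS1 measured 101, 94.4, 97.2 and 107 CPM in low glucose and 141, 130.5, 140.3 and 151 CPM in high glucose (log2 change of 0.49 ± 0.05, adjusted p = 3.45e-07), while FGD5, a guanine nucleotide exchange factor, was listed at 0 in 7 of 8 libraries. OIP5-AS1, known as Cyrano and for a site that pairs with miR-7, measured 81.8, 74.9, 75.9 and 79.5 CPM in low glucose and 93.0, 87.4, 95.8 and 95.04 CPM in high glucose (log2 change of 0.25 ± 0.05, adjusted p = 0.000216). OIP5, a centromere factor, rose from 2.79 ± 0.378 to 4.12 ± 0.531 CPM (log2 change of 0.44 ± 0.14, adjusted p = 0.00987). MAGI2-AS3 measured 61.0, 56.4, 64.1 and 65.0 CPM in low glucose and 71.3, 69.4, 76.9 and 79.2 CPM in high glucose (log2 change of 0.26 ± 0.06, adjusted p = 0.000755), and MAGI2 was not called (adjusted p = 0.372). SVIL-AS1 measured 32.8, 29.0, 26.3 and 28.9 CPM in low glucose and 39.1, 37.7, 37.9 and 39.2 CPM in high glucose (log2 change of 0.39 ± 0.07, adjusted p = 9.93e-05). SVIL, which encodes the actin-binding protein supervillin, rose from 75.1 ± 2.99 to 110.2 ± 1.44 CPM (log2 change of 0.55 ± 0.04, adjusted p = 1.27e-08). In GENCODE, SVIL-AS1 is a pseudogene of 122 exon bases, all shared with a gene model on the same strand. RefSeq places it at chr10:29409534-29487856, and which of these models its reads cover was not tested. NR2F1-AS1 measured 31.2, 31.7, 30.2 and 31.1 CPM in low glucose and 25.7, 24.9, 23.5 and 25.3 CPM in high glucose (log2 change of -0.31 ± 0.06, adjusted p = 0.000318). NR2F1, an orphan nuclear receptor, rose from 14.4, 13.3, 12.9 and 13.7 CPM in low glucose to 77.0, 84.3, 83.5 and 81.5 CPM in high glucose (log2 change of 2.50 ± 0.06, adjusted p = 2.48e-14). The fall of NR2F1-AS1 was not called after libraries were set to the same total (log2 fold change -0.08).

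Of 24 members listed as studied RNAs, 14 (58.3%) were higher, 4 (16.7%) lower (MSC-AS1, THAP9-AS1, NR2F1-AS1 and KTN1-AS1) and 6 not called. Over all members 48.0% were higher and 19.8% lower, and over all genes tested 35.7% and 37.2%. CDKN2B-AS1, known as ANRIL and transcribed across the INK4 locus, measured 2.21, 2.82, 2.41 and 1.77 CPM in low glucose and 5.86, 4.76, 4.05 and 3.78 CPM in high glucose (log2 change of 0.76 ± 0.15, adjusted p = 0.000374). CDKN2B, the cell cycle inhibitor p15, fell from 92.0 ± 1.81 to 33.7 ± 2.05 CPM (log2 change of -1.42 ± 0.05, adjusted p = 2.3e-12). VIM-AS1 measured 0.443, 0.708, 0.433 and 0.118 CPM in low glucose and 1.65, 2.10, 1.53 and 1.62 CPM in high glucose (log2 change of 0.95 ± 0.16, adjusted p = 7.24e-05). VIM-AS1 was a member only through high glucose, so the choice of members favored its rise. VIM, which encodes vimentin, fell from 8420.3 ± 132 to 3733 ± 139.8 CPM (log2 change of -1.17 ± 0.04, adjusted p = 4.94e-13). ZEB1-AS1 stood at 2.25 ± 0.510 to 2.55 ± 0.398 CPM and was not called (log2 change of 0.14 ± 0.15, adjusted p = 0.437), while ZEB1, a repressor of epithelial genes, fell from 147 ± 7.61 to 89.4 ± 3.37 CPM (log2 change of -0.71 ± 0.05, adjusted p = 1.53e-09). HOXA-AS2, named after a gene cluster and without a partner row, measured 1.44, 1.69, 1.30 and 1.42 CPM in low glucose and 3.76, 2.53, 3.26 and 2.16 CPM in high glucose (log2 change of 0.66 ± 0.15, adjusted p = 0.00132). PSMA3-AS1 rose from 7.60 ± 1.26 to 19.4 ± 2.75 CPM (log2 change of 1.249 ± 0.13, adjusted p = 2.45e-07), and MCM3AP-AS1 from 2.83 ± 1.02 to 6.46 ± 0.423 CPM (log2 change of 0.995 ± 0.17, adjusted p = 6.51e-05). BDNF-AS, described as a repressor of BDNF, was not called (log2 change of -0.36 ± 0.18, adjusted p = 0.077), nor was BDNF (log2 change of 0.07 ± 0.05, adjusted p = 0.233).

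Sorted by what the partner gene does, a grouping made after the values were seen and given without a test, 115 members fell into 9 groups and 62 into none. The counts stand beside 48.0% higher and 19.8% lower over all members and 35.7% and 37.2% over all genes tested, and the groups are small. Of 16 members opposite genes for zinc finger, THAP and BED domain proteins, 11 were higher and 1 lower. Of the partners in this group, 3 of 15 tested were higher and 8 lower, and a link within pairs was not tested. Opposite pairs included THAP7-AS1 (log2 fold change 0.76) against THAP7 (-0.84) and ZNF213-AS1 (0.53) against ZNF213 (-1.36). THAP7-AS1 was a member only through high glucose, so the choice of members favored its rise. Pairs of such domain genes also moved together: THAP9-AS1 (-0.86) with THAP9 (-0.75), and ZBED5-AS1 (1.36) with ZBED5 (0.68). Of 14 members opposite proteasome and ubiquitin genes, 8 were higher and 3 lower, including PSMG3-AS1 (1.49) and HECW2-AS1 (1.19). Of 11 opposite genes of the cell cycle, chromosomes and DNA repair, 7 were higher and 1 lower. The lower one was H1FX-AS1 (-0.83), next to a linker histone gene.

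Of the 7 members next to genes of mitochondrial proteins, 5 were higher and 0 lower. PINK1-AS measured 6.62, 6.69, 6.21 and 6.91 CPM in low glucose and 10.9, 11.1, 12.3 and 10.6 CPM in high glucose (log2 change of 0.68 ± 0.10, adjusted p = 1.76e-05), and PINK1, a kinase of mitochondrial quality control, rose from 109.9 ± 5.59 to 137 ± 12.6 CPM (log2 change of 0.32 ± 0.06, adjusted p = 0.000212). NNT-AS1 rose from 18.0 ± 2.16 to 27.3 ± 0.998 CPM (log2 change of 0.58 ± 0.08, adjusted p = 1.31e-05) next to NNT, the mitochondrial transhydrogenase. COX10-AS1 measured 2.77, 1.69, 2.06 and 1.65 CPM in low glucose and 8.06, 5.31, 5.63 and 7.66 CPM in high glucose (log2 change of 1.33 ± 0.16, adjusted p = 2.33e-06), whereas COX10, an enzyme of heme A synthesis, was not called (adjusted p = 0.583). Of 14 members next to genes for RNA processing and translation, 6 were higher and 3 lower, and of their 14 partners 4 were higher and 8 lower. Of 14 next to genes of sterol, lipid and stress metabolism, 5 were higher and 6 lower. In that group STARD4-AS1, next to a gene for a sterol carrier, measured 6.35, 6.83, 8.41 and 7.72 CPM in low glucose and 4.38, 4.38, 4.44 and 3.08 CPM in high glucose (log2 change of -0.72 ± 0.14, adjusted p = 0.000212). PITPNA-AS1 fell from 5.96 ± 1.43 to 3.11 ± 0.326 CPM (log2 change of -0.74 ± 0.15, adjusted p = 0.000411), while PITPNA, a phosphatidylinositol transfer protein, rose from 50.6 ± 1.77 to 113 ± 3.96 CPM (log2 change of 1.15 ± 0.05, adjusted p = 5.49e-12). Of 15 members next to developmental and mesenchymal transcription factors, 5 were higher and 6 lower. The growth factor, matrix and adhesion group had 4 of 12 higher and 2 lower, and the cytoskeleton group 6 of 12 higher and 2 lower.

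**Figure D3:**
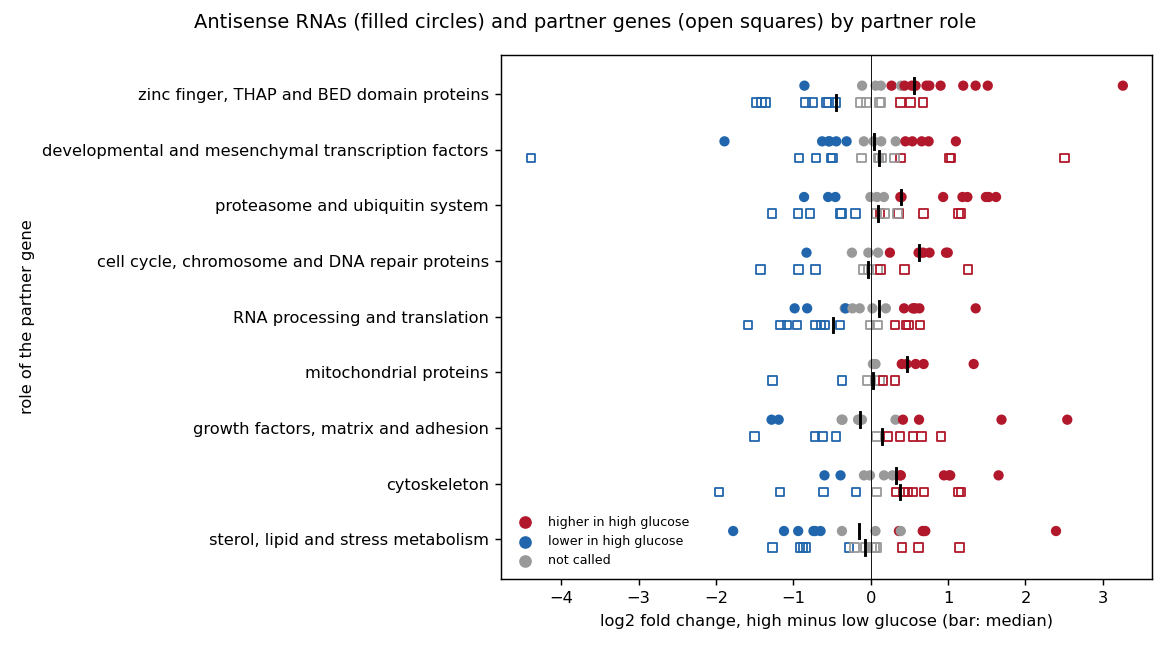
Log2 fold change (x axis, high minus low glucose) of antisense RNAs (filled circles) and of their partner genes (open squares) in 9 groups by the role of the partner (y axis). Black bars are medians and colors give the call; among zinc finger, THAP and BED domain genes the median is 0.56 for the antisense RNAs and -0.45 for the partners.

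The genes that the members are named after were close to all genes in their share of rises. A partner row was found for 172 members, with 170 different partners, and 160 of these were tested. Of them 55 (34.4%) were higher and 69 (43.1%) lower, against 35.7% and 37.2% of all genes tested, with a median log2 fold change of 0.00. This split turned with scaling, to 76 higher and 59 lower after libraries were set to the same total and 70 and 62 with median ratio scaling, while the antisense RNAs had more rises than falls in each. In 161 pairs both RNAs were tested, and in 82 both were called. The direction was the same in 44 (26 both higher, 18 both lower) and opposite in 38. Of the opposite pairs, 30 had a higher antisense RNA and a lower partner and 8 the reverse. Over the 161 pairs, 77 antisense RNAs were higher and 32 lower, and partners were higher in 55 and lower in 69. With these shares the first kind would be the more frequent without any link within pairs, which was not tested. Across the 161 pairs, which share libraries and in some cases exon bases, the log2 fold changes correlated at Pearson r = 0.154 and Spearman rho = 0.0791.

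**Figure D4:**
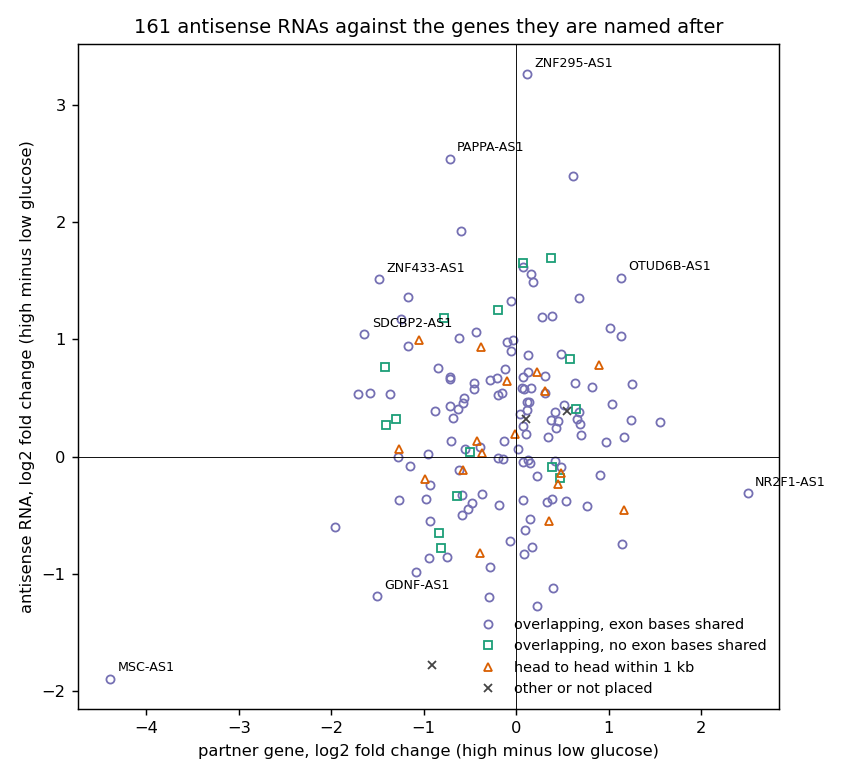
Log2 fold change of 161 antisense RNAs (y axis) against that of the partner gene (x axis), both high minus low glucose. Symbols give the arrangement of the pair in GENCODE; the points fill all 4 quadrants, with MSC-AS1 at the lower left and NR2F1-AS1 at the far right.

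Among the pairs with opposite calls, the 8 with the largest difference included PAPPA, SH3BP5, ZNF433 and NR2F1, described above. SDCBP2-AS1 measured 0.775, 1.24, 1.63 and 1.42 CPM in low glucose and 3.90, 3.21, 3.82 and 3.60 CPM in high glucose (log2 change of 1.05 ± 0.15, adjusted p = 1.4e-05). SDCBP2, a scaffold protein of the syntenin family, measured 6.15, 5.51, 7.80 and 6.45 CPM in low glucose and 1.71, 2.10, 0.573 and 1.44 CPM in high glucose (log2 change of -1.64 ± 0.19, adjusted p = 1.25e-06). Neither overlapped between groups. PRKRA-AS1, now named CHROMR and described in cholesterol metabolism, measured 1.77, 3.49, 1.73 and 3.30 CPM in low glucose and 8.67, 7.52, 7.73 and 7.75 CPM in high glucose (log2 change of 1.36 ± 0.17, adjusted p = 3.08e-06). PRKRA encodes PACT, an activator of the kinase PKR and a partner of Dicer, and fell from 75.9 ± 1.45 to 33.3 ± 0.680 CPM (log2 change of -1.17 ± 0.05, adjusted p = 6.82e-12). TMEM147-AS1 measured 2.21, 3.60, 4.01 and 3.54 CPM in low glucose and 9.01, 10.7, 7.83 and 7.30 CPM in high glucose (log2 change of 1.17 ± 0.16, adjusted p = 6.96e-06), and TMEM147, a membrane protein of the endoplasmic reticulum, fell from 132 ± 5.18 to 55.2 ± 6.05 CPM (log2 change of -1.25 ± 0.06, adjusted p = 9.93e-11). UCKL1-AS1 rose less, from 1.02 ± 0.372 to 1.90 ± 0.273 CPM (log2 change of 0.53 ± 0.16, adjusted p = 0.00752), and UCKL1, a kinase of uridine and cytidine, fell from 51.1 ± 3.50 to 15.1 ± 2.50 CPM (log2 change of -1.71 ± 0.10, adjusted p = 3.45e-10). The call of UCKL1-AS1 was lost with quantile normalization.

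**Figure D5:**
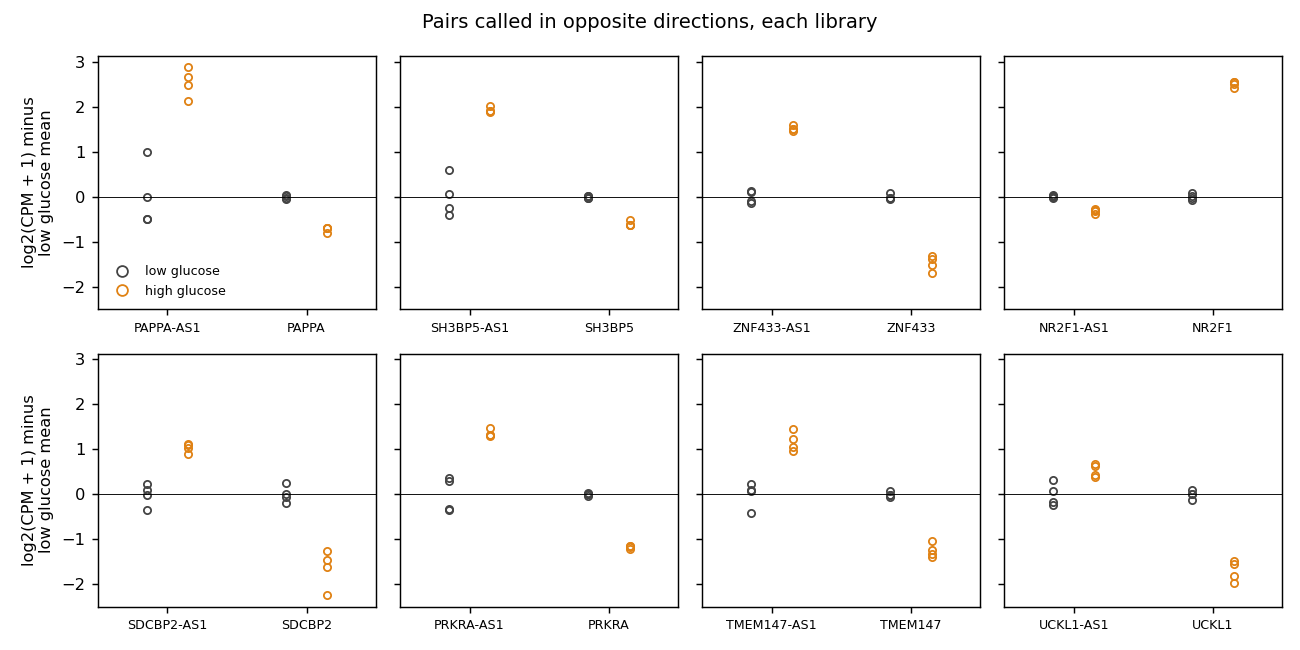
Level of 8 antisense RNAs and their partner genes in each library, as log2(CPM + 1) minus the mean of low glucose (y axis), one panel per pair. Gray circles are low glucose and orange circles high glucose (4 libraries each); in 7 panels the antisense RNA is up and the partner down, and in the NR2F1 panel the reverse.

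Pairs that moved together included, beside those above, LIMD1 and FOXD1. LIMD1-AS1 measured 1.80, 1.39, 1.96 and 0.522 CPM in low glucose and 5.15, 3.59, 3.17 and 3.42 CPM in high glucose (log2 change of 1.03 ± 0.20, adjusted p = 0.000302), and LIMD1, a LIM domain protein, rose from 24.7 ± 1.97 to 55.5 ± 2.78 CPM (log2 change of 1.14 ± 0.07, adjusted p = 4.35e-10). FOXD1-AS1 measured 3.67, 3.85, 5.23 and 4.74 CPM in low glucose and 8.26, 11.3, 11.5 and 11.1 CPM in high glucose (log2 change of 1.10 ± 0.14, adjusted p = 2.84e-06), and the forkhead factor FOXD1 rose from 14.4 ± 1.53 to 30.01 ± 2.57 CPM (log2 change of 1.02 ± 0.09, adjusted p = 5.49e-08). These members share 71.6% and 100% of their exon bases with the other strand.

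By exon overlap, the 92 members with under 10% of their exon bases shared with the other strand were higher in 50 cases (54.3%) and lower in 13 (14.1%). Of the 18 members with at least 50% shared, a small set, 6 were higher and 6 lower (33.3% each). Over all members 48.0% were higher and 19.8% lower, and over all genes tested 35.7% and 37.2%. These 18 included both directions relative to the partner, such as EML2-AS1 (-0.60) with EML2 (-1.96) and PITPNA-AS1 against PITPNA. The part of reads from the other strand in these values was not tested.

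Arrangement was taken from GENCODE gene models by identifier. Of the 161 tested pairs, 126 overlapped with shared exon bases, 15 overlapped without, 17 lay head to head with at most 1 kb between them, and 3 were placed otherwise or not at all. Head-to-head pairs had 4 same and 4 opposite calls, and those overlapping without shared exon bases likewise had 4 and 4. Overlapping pairs with shared exon bases had 34 and 30. In 67 pairs the main start sites lay within 1 kb on opposite strands, with 19 same and 14 opposite calls and Pearson r = 0.342 (Spearman rho = 0.193). In the 93 pairs with start sites further apart there were 24 and 24, with r = -0.0372 (rho = -0.0154). The closer pairs include MSC-AS1 with MSC (log2 fold changes -1.89 and -4.39), and those further apart NR2F1-AS1 with NR2F1 (-0.31 and 2.50). The weight of single pairs in these correlations, and the difference between the sets, was not tested.

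In RefSeq (GRCh38), 23 members start at most 250 bases from the partner and run the other way, so that a stretch of 45 to 249 bases between the start sites lies before both genes. Of these 23 pairs, 6 were called in the same direction, 4 in opposite directions, and 13 were not called in both. The stretches below are those of the 4 pairs with opposite calls and of the 4 pairs with the largest changes in the same direction, shown because both genes of a pair start at the ends of 1 such sequence. Each is written 5′ to 3′ on the strand of the antisense RNA, from the base after the start of the partner to the base before the start of the antisense RNA. Capitals mark CCAAT, the GC box GGGCGG and the ETS type site CCGGAAG on either strand, where CCGCCC is the GC box of the other strand. In ZBED5-AS1 a CCAAT overlaps a GC box. The opposite pairs were as follows, in the order UBA6-AS1 (chr4:67701156-67701277, plus strand), TRIM52-AS1 (chr5:181261144-181261211, plus strand), KTN1-AS1 (chr14:55580093-55580206, minus strand) and TMEM161B-AS1 (chr5:88268846-88269015, plus strand).
UBA6-AS1: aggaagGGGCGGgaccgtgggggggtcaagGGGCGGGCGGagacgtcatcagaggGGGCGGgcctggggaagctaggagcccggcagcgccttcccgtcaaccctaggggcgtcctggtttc
TRIM52-AS1: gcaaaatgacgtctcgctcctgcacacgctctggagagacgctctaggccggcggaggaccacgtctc
KTN1-AS1: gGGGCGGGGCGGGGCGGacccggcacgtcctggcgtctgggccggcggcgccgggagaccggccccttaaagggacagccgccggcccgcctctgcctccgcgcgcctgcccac
TMEM161B-AS1: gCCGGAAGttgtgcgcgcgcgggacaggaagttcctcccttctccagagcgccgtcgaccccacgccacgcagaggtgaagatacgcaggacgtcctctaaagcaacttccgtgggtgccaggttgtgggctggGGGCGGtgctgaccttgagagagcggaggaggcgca

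The pairs called in the same direction were RASAL2-AS1 (chr1:178093994-178094103, minus strand), DDIT4-AS1 (chr10:72273712-72273923, minus strand), ZBED5-AS1 (chr11:10858054-10858216, plus strand) and TPT1-AS1 (chr13:45341184-45341344, plus strand).
RASAL2-AS1: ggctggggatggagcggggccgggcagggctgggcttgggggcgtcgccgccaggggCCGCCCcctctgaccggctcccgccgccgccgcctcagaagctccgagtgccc
DDIT4-AS1: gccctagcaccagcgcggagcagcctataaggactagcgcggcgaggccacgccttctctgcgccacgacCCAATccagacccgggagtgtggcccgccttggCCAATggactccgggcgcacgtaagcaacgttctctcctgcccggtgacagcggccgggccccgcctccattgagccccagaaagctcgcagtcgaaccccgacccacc
ZBED5-AS1: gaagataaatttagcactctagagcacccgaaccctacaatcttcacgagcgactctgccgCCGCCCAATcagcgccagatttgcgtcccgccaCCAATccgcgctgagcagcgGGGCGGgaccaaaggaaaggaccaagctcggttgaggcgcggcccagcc
TPT1-AS1: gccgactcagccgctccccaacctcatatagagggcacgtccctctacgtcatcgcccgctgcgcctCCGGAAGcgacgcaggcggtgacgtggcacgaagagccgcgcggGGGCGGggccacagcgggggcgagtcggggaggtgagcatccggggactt

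TRIM52-AS1 and its partner start 69 bases apart and moved in opposite directions. TRIM52-AS1 measured 8.19, 6.18, 5.63 and 5.48 CPM in low glucose and 3.99, 4.11, 4.68 and 4.53 CPM in high glucose (log2 change of -0.46 ± 0.14, adjusted p = 0.00689), and TRIM52, a RING finger protein, rose from 5.201 ± 0.728 to 12.8 ± 0.695 CPM (log2 change of 1.17 ± 0.11, adjusted p = 1.67e-07). UBA6-AS1 measured 12.4, 14.6, 12.7 and 14.3 CPM in low glucose and 9.19, 8.97, 8.97 and 8.38 CPM in high glucose (log2 change of -0.55 ± 0.10, adjusted p = 9.36e-05), while UBA6, a ubiquitin-activating enzyme, rose from 84.3 ± 3.45 to 108 ± 3.71 CPM (log2 change of 0.36 ± 0.04, adjusted p = 2.9e-06). KTN1-AS1 fell from 2.82 ± 0.370 to 1.93 ± 0.427 CPM (log2 change of -0.39 ± 0.15, adjusted p = 0.0304) and KTN1, which encodes kinectin, rose from 288 ± 13.4 to 363 ± 32.4 CPM (log2 change of 0.33 ± 0.06, adjusted p = 6.46e-05). The fall of KTN1-AS1 was not called in 5 of 18 alternative fits. TMEM161B-AS1 rose from 0.975 ± 0.348 to 2.12 ± 0.643 CPM (log2 change of 0.65 ± 0.18, adjusted p = 0.00438) and TMEM161B fell (log2 change of -0.28 ± 0.09, adjusted p = 0.00922). TMEM161B-AS1 was a member only through high glucose, so the choice of members favored its rise.

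Among the pairs with a common direction, TPT1-AS1 measured 9.48, 9.16, 8.20 and 9.68 CPM in low glucose and 4.63, 5.51, 3.72 and 5.19 CPM in high glucose (log2 change of -0.82 ± 0.13, adjusted p = 2.68e-05), and TPT1, the translationally controlled tumor protein, fell from 2033 ± 125 to 1543 ± 31.0 CPM (log2 change of -0.40 ± 0.04, adjusted p = 4.43e-07). ZBED5-AS1 measured 1.88, 0.787, 0.975 and 1.89 CPM in low glucose and 3.90, 6.01, 5.06 and 5.04 CPM in high glucose (log2 change of 1.36 ± 0.18, adjusted p = 6.35e-06) and ZBED5, a gene derived from a transposon, rose from 32.3 ± 1.83 to 52.3 ± 3.99 CPM (log2 change of 0.68 ± 0.07, adjusted p = 1.61e-07). RASAL2-AS1 measured 0.996, 1.24, 0.325 and 0.943 CPM in low glucose and 2.17, 2.81, 1.81 and 1.98 CPM in high glucose (log2 change of 0.78 ± 0.18, adjusted p = 0.000968), and RASAL2, a GTPase-activating protein of Ras, rose from 92.0 ± 5.24 to 172 ± 6.97 CPM (log2 change of 0.90 ± 0.05, adjusted p = 1.22e-10). RASAL2-AS1 was a member only through high glucose, so the choice of members favored its rise. Of the 23 stretches, 15 held a GC box, 5 a CCAAT, 3 the ETS type site and 0 a TATAAA or CACGTG, and the median GC content was 72.1%.

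Promoter windows of 250 bases before to 50 after the RefSeq start were found for 135 members. They had a median GC content of 64.3%, against 58.3% over 27305 windows of all genes. GGGCGG on either strand was present in 64.4% of the members' windows and 44.6% of all, CCGGAAG in 17.8% and 10.7%, CCAAT in 31.9% and 35.7%, CACGTG in 8.15% and 7.43%, and TATAAA in 4.44% and 12%. These letter matches describe the windows and are not evidence of binding. Among members with a window, CCAAT was present in 25 of 66 called higher, 7 of 23 called lower and 11 of 46 not called. In the same order, GGGCGG was present in 44, 15 and 28, and CCGGAAG in 13, 2 and 9. CACGTG was present in 7, 1 and 3, and TATAAA in 1, 1 and 4. Differences between these groups were not tested.

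Per kb of annotated exon bases, the partner was at a higher level than the antisense RNA in 136 of 171 pairs, with medians of 6.47 CPM per kb for partners and 0.621 for members. FGD5-AS1 was among the exceptions, at 19.9 CPM per kb against 0.00167 for FGD5, and so was AGAP2-AS1, at 10.01 against 0.0932 for AGAP2. For AGAP2-AS1, 1378 of 1500 exon bases are shared with gene models on the same strand. THAP9-AS1 was at 8.26 and THAP9 at 0.781 CPM per kb.

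Genes that degrade or sense such RNAs were called in both directions, beside 35.7% higher and 37.2% lower over all genes tested. Of 23 tested genes of the nuclear exosome and its adaptors, 8 (34.8%) were higher and 11 (47.8%) lower, and 4 were not called. Within this list, EXOSC1, EXOSC2, EXOSC4, EXOSC5, EXOSC7, EXOSC8, EXOSC9 and EXOSC10 were called lower, and EXOSC3 and EXOSC6 were not called. Among core and catalytic subunits, EXOSC10 fell from 140.2 ± 3.78 to 80.1 ± 1.39 CPM (log2 change of -0.80 ± 0.04, adjusted p = 5.48e-11) and EXOSC5 from 26.8 ± 4.01 to 7.20 ± 1.71 CPM (log2 change of -1.77 ± 0.15, adjusted p = 2.2e-08), whereas the catalytic subunit DIS3 rose from 55.0 ± 2.98 to 66.4 ± 2.49 CPM (log2 change of 0.27 ± 0.05, adjusted p = 0.000284). Among the adaptors, ZFC3H1, which brings polyadenylated nuclear RNA to the exosome, rose from 14.2 ± 1.47 to 55.2 ± 3.30 CPM (log2 change of 1.89 ± 0.08, adjusted p = 8.27e-12), and PABPN1, a nuclear poly(A) binding protein, rose from 45.4 ± 1.06 to 95.8 ± 6.10 CPM (log2 change of 1.06 ± 0.05, adjusted p = 5.32e-11). RBM7 (log2 fold change -0.72) and ZCCHC8 (-0.57), which form an adaptor complex with MTREX, and the poly(A) polymerase TENT4B (-0.36) were called lower, and MTREX (0.34) higher. Of 24 genes that process, edit or sense double-stranded RNA, 10 (41.7%) were higher, 8 (33.3%) lower and 6 not called. DHX9, a helicase of double-stranded RNA, rose from 95.7 ± 2.47 to 218 ± 6.70 CPM (log2 change of 1.18 ± 0.04, adjusted p = 5.92e-13). DGCR8, the partner of Drosha in microRNA processing, rose from 8.10 ± 1.03 to 34.2 ± 1.31 CPM (log2 change of 1.96 ± 0.09, adjusted p = 2.95e-11), and MAVS, the adaptor of RNA sensing, rose from 125 ± 5.34 to 259.7 ± 4.07 CPM (log2 change of 1.05 ± 0.04, adjusted p = 2.1e-12). The sensor IFIH1, known as MDA5, fell from 9.11 ± 0.316 to 5.45 ± 0.488 CPM (log2 change of -0.65 ± 0.11, adjusted p = 6.28e-05).

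At the level limit, SP2-AS1, VIM-AS1 and RGMB-AS1 were the members just inside, with means of 1.04, 1.08 and 1.08 CPM over the 8 libraries, and ELF3-AS1, PARD6G-AS1 and NAV2-AS1 were just outside, with 0.997, 0.997 and 0.996 CPM. In 21 members the mean of low glucose and in 7 the mean of high glucose was under 1 CPM, so their place in the set rested on the other group. Those that rested on high glucose included PLCE1-AS1, PLS3-AS1, PAPPA-AS1, EPHA1-AS1, PSMD6-AS2, VIM-AS1, THAP7-AS1, RASAL2-AS1 and TMEM161B-AS1. Those that rested on low glucose included MATN1-AS1 and USP2-AS1. Of the 149 members at 1 CPM or more in each group, 67 (45.0%) were higher and 29 (19.5%) lower, against 35.3% and 42.6% of all genes tested at that level.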

How the data were processed

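RNA-Seq libraries of Hs578T cells after 48 hours in low or high glucose (4 per group) were compared; groups came from the treatment label. The authors deposited 1 table of normalized signal (21077 genes, 8 columns). It was taken as CPM with TMM factors, since the submitters' processing notes name edgeR and hg38 and columns sum to between 1017015 and 1229021. The sources used here do not give the aligner, the counter or the use of strand. Depth was estimated by taking the most frequent positive value of a column as 1 read; 71.3% to 73.7% of values below 50 reads were then whole within 0.005 read, so counts were fractional and no count model was used. The design had foreseen plain CPM, and the same test was kept.

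A total of 15570 genes reached 0.5 CPM in 2 or more libraries. Their log2(CPM + 1) values were fitted with limma 3.58.1 under R 4.3.3, with a variance trend and no covariates, and genes were called at a Benjamini-Hochberg FDR under 0.05. In simulated data for these genes, 48 of 50 genes changed by 2-fold and 41 of 50 changed by 1.5-fold were recovered. The simulation drew whole counts with the same assumed spread for every gene and changed only a small part of the genes. The deposited data differ in these settings, so the shares recovered do not describe the antisense RNAs. The labels do not say whether replicates were separate cultures, and p values therefore reflect only how these libraries vary, which may be technical. No pair of libraries agreed within sampling noise: the chi-square per gene of estimated counts was 1.60 to 5.72 within groups, against 103 to 129 between them.

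Members and lists were chosen with earlier results of these data known. Named members were the 10 largest rises and 10 largest falls without overlap between groups, the 8 most abundant, 8 opposite and 8 same-direction pairs, those at the limit of 1 CPM and a list of studied RNAs, with their partners; others in the text were chosen after their values were seen, and not every named one is printed. Some named members are not reported here singly but are part of all counts except those of libraries far from the others. Partners were matched by symbol or older symbol. Arrangement and exon bases came from GENCODE v44 on GRCh37 by identifier, without its coordinates. Positions and sequences are from RefSeq (GRCh38.p14), matched for 173 and 135 members. Alternatives covered pseudocount, filter, scaling, variance prior, a replicate block, leaving out replicates, and the choice of members.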

Additional observations from a re-analysis of the deposited data

Results flagged for a closer look

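In 13 of 193 groups of 4 libraries of the named antisense RNAs and partner genes, 1 library lay far from the other 3 (gap over range above Dixon's 95% critical value for 4 values). Chance flags about 1 group in 20. The following are given as values only. PAPPA was at 79.3 CPM in high-glucose replicate 2, with the other 3 at 85.2 to 86.3 CPM. SH3BP5-AS1 was at 13.4 CPM in high-glucose replicate 4, with the other 3 at 11.9995 to 12.2 CPM. SH3BP5 was at 38.6 CPM in high-glucose replicate 3, with the other 3 at 35.4 to 35.6 CPM. PLS3-AS1 was at 0.337 CPM in low-glucose replicate 2, with the other 3 at 0. PLS3-AS1 was at 3.72 CPM in high-glucose replicate 3, with the other 3 at 1.89 to 2.10 CPM. PLS3 was at 299 CPM in low-glucose replicate 2, with the other 3 at 327 to 333 CPM. MSC-AS1 was at 44.3 CPM in high-glucose replicate 2, with the other 3 at 46.6 to 46.9 CPM. MSC was at 670.2 CPM in low-glucose replicate 2, with the other 3 at 591 to 600.0 CPM. FGD5 was at 0.108 CPM in low-glucose replicate 3, with the other 3 at 0. SVIL was at 70.7 CPM in low-glucose replicate 1, with the other 3 at 76.2 to 77.3 CPM. FOXD1-AS1 was at 8.26 CPM in high-glucose replicate 1, with the other 3 at 11.1 to 11.5 CPM. ZEB1-AS1 was at 1.96 CPM in high-glucose replicate 3, with the other 3 at 2.67 to 2.81 CPM. DLGAP1 was at 0.191 CPM in high-glucose replicate 3, with the other 3 at 0.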

How the results depend on the processing

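The direction of the excess was the same in each alternative fit, with more antisense RNAs called higher than lower. Members called numbered 79 to 85 higher and 31 to 36 lower when each replicate was left out in turn. In all 19 fits, 70 members were higher and 22 lower in each. With libraries set to the same total, 23 members were lower (4 by 2-fold) and 5 genes of double-stranded RNA were lower. The number with a 2-fold change followed the pseudocount by construction: 41 higher and 13 lower with 0.1 CPM, and 6 and 1 with 5 CPM. Quantile normalization gave 11 with a 2-fold fall. Choosing fewer members gave fewer calls by construction: 29 higher and 15 lower with a mean of at least 5 CPM. After seeing the data, the choice was narrowed to members with under 10% shared exon bases (50 higher, 13 lower) and to those with start sites within 1 kb of the partner (30 and 13). Pairs that share no exon bases gave 9 calls in the same and 8 in opposite directions. Leaving out each replicate in turn also gave 24 to 31 members with a 2-fold rise and 7 to 9 with a 2-fold fall, 52 to 56 partners higher and 68 to 70 lower, and 36 to 45 pairs in the same and 34 to 40 in opposite directions. Across named genes, 1685 of 1741 alternative values kept direction and call, 27 lost and 26 gained a call, and 3 changed sign after libraries were set to the same total: MCM3AP (0.21), SBF2 (0.087) and PSMA3 (0.042). The cause was not tested. Replicate numbers were not taken to pair the samples. Deviations of same-numbered libraries correlated at -0.03, 0.11, 0.01 and 0.08, and not every library correlated best with its own number. Such weak values do not settle whether the samples were paired. With a replicate block 85 members were higher and 34 lower, 55 and 69 partners, and 43 pairs moved in the same and 38 in opposite directions. At a depth where 1 CPM is 8.48 to 11.5 counts, counting error limits the precision of the lowest members.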

Other observations

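The rows with an antisense suffix that were under the limit of 1 CPM numbered 383, and 49 of them were listed at 0 in all 8 libraries. Of these 383, 146 passed the filter on low values, and 41 of the 146 were called higher and 14 lower in high glucose by limma. Over all genes tested 35.7% were higher and 37.2% lower, and the share of all genes under 1 CPM was not counted. Among the 11 members that now carry a name for a divergent transcript, COX10-AS1, RAB30-AS1, RNF139-AS1, PAXIP1-AS1 and TMEM161B-AS1 were called higher, UBA6-AS1 was called lower and 5 were not called.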
